A study of Saccharomyces cerevisiae with 24 samples.

Results

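The 56 genes described here encode assembly factors of the large (60S) ribosomal subunit of budding yeast, Saccharomyces cerevisiae. They were chosen by name as factors of known role, with earlier results of these data known. Every one of the 56 had 1 named probe set on the array, out of 5449 S. cerevisiae genes tested. The parent culture was strain S288C in SD medium, a defined synthetic medium, at 28 °C. A heat series was shifted to 37 °C, a cold series was shifted to 10 °C, and a control series stayed at 28 °C. Samples came from 8 times per series, at 0, 15, 30 and 60 min and at 2, 4, 8 and 24 h, each hybridised once, which gives 24 arrays. No genotype or drug treatment separates the series. The heat samples were labelled with an extra amplification kit that the control and cold samples did not receive, so kit and heat series cannot be told apart. The question that the design puts to these genes is how their transcript levels move when the temperature rises or drops.

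Assembly factors are proteins that join the ribosomal RNA precursor in the nucleolus, fold, trim and modify it while ribosomal proteins are added, and then leave. They act in a rough order, from RNA helicases and early scaffold proteins, through GTPases and the AAA ATPase Rea1 that strip earlier factors from the particle, to export adaptors and cytoplasmic factors that finish the subunit. In yeast their genes belong to the ribosome biogenesis regulon, which is known to follow growth rate and to be repressed in many stress responses, and the factors themselves are absent from the finished ribosome.

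Values are log2 expression levels per gene as deposited, and a difference of 1 is a 2-fold change. In bulk RNA from a culture, fewer cells carrying a transcript and less of that transcript per cell cannot be told apart. Array medians lay between 10.69 and 10.78. At 0 min, before any shift, cold and control arrays correlated at r = 0.990 across all genes, while heat and control arrays correlated at r = 0.703, so heat levels are read against the heat series' own 0 min array. The heat shock gene HSP26 changed from its 0 min level by 1.98, 2.88 and 3.05 at 15, 30 and 60 min of heat, and by -0.67, -1.62 and -3.22 in the cold. Members had mean levels of 7.93 to 12.69, with a median of 11.02 beside 10.72 for all genes. A level of 6.53, below which 95% of probe sets for other species lie, marks dim signal. Of 1344 member values, 20 fell below it, and these were all in the heat series: 4 at 15 min, 8 at 30 min, 5 at 60 min and 3 at 24 h.

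In the first hour in the cold the transcripts of all 56 factors were higher than in the control. The median difference from the control was 1.87 over 15, 30 and 60 min, beside -0.01 for all genes. Fitted with limma across all genes, 56 of 56 members were higher at an adjusted p under 0.05, while 16.3% of all genes were called higher. At every one of these times the cold levels of all 56 members lay above all control levels of the same window, which held for 32.7% of all genes. Against their own 0 min array, 35 members were at least 2-fold higher at 15 min (3.16% of all genes), 49 at 30 min (5.14%) and 51 at 60 min (5.71%). The highest cold level between 15 min and 8 h came at 30 min for 26 members and at 60 min for 30.

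**Figure D1:**
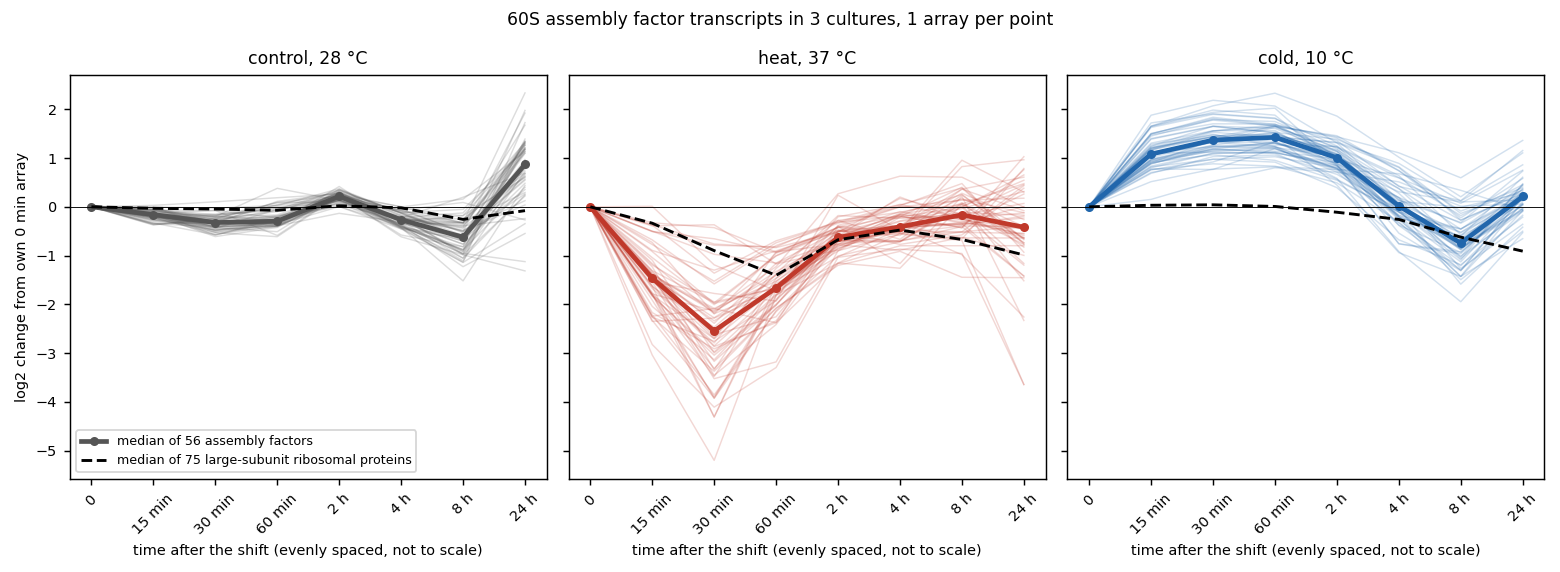
Log2 change of each assembly factor from its own 0 min array (thin lines, 56 genes), with their median (thick line) and the median of 75 large-subunit ribosomal protein genes (dashed), in control, heat and cold; the horizontal axis gives the sampling times evenly spaced. The factors' median reached -2.54 at 30 min of heat and 1.42 at 60 min of cold. The ribosomal proteins' median was 0.01 at 60 min of cold, and the effect of high signal on it was not tested.

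RIX1 (YHR197W), CGR1 and ARX1 had first-hour differences from the control that were level at the top of the members. RIX1 encodes the core of a small complex that recruits Rea1 to the particle. Its cold levels were 10.27, 11.78, 12.05 and 11.93 at 0, 15, 30 and 60 min, beside 9.68, 9.52, 9.07 and 9.26 in the control, a difference of 2.64 ± 0.56 (SE; limma adjusted p = 0.00442). CGR1, a nucleolar factor for processing of the large-subunit RNA, went from 9.78 to 11.44, 11.85 and 12.11 in the cold, beside 9.35, 9.01, 9.02 and 9.47 in the control. The difference was 2.64 ± 0.32 (limma adjusted p = 0.000260). For both genes the 3 cold values after the shift stood above every control value up to 60 min. With the 0 min difference subtracted, the order changed, with estimates of 2.21 for CGR1, 2.13 for REI1, 2.11 for SSF1 and 2.04 for RIX1. IPI3 then stood above all of these, with a difference from control of 2.56 in the first hour and 0.24 at 0 min. The same values for CGR1 were 2.64 and 0.43.

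At the other end stood RRP14 (0.92 ± 0.24, limma adjusted p = 0.0131), MDN1 (1.03 ± 0.36, adjusted p = 0.0469) and TIF6 (1.17 ± 0.14, adjusted p = 0.000279). RRP14 encodes a partner of the Ssf1 module, MDN1 the giant ATPase Rea1, and TIF6 the factor that keeps the small subunit from joining too early. MDN1 levels were 12.38, 12.53, 12.91 and 13.18 in the cold and 12.09, 12.02, 12.01 and 11.50 in the control. Its cold value was highest at 60 min, when the control value was the lowest of the control course. TIF6 went from 12.33 to 12.84, 13.10 and 13.15 in the cold while its control values lay between 11.82 and 12.21, so its difference was small and its error smaller than for most members.

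The cold calls depend on comparing matched times without the 0 min arrays. Before the shift, 55 of 56 members were already higher in the cold culture than in the control (median 0.34). With that difference subtracted the median was 1.52 and 0 of 56 members passed, as did 0 genes in all. An unadjusted p under 0.05 was found for 23 members, but the share of all genes at that threshold is not given here, so this count has no background. Without the 60 min arrays 43 members passed (15.5% of all genes in either direction), and MDN1 (adjusted p = 0.255), LSG1, ERB1, NOG1, SDA1, RRP14, SSF2, NOP7, DRS1, SPB1 and HAS1 were among those lost. Without the 30 min arrays 48 members passed (15% of all genes in either direction), and MDN1 (adjusted p = 0.151), SSF2, RRP14, LSG1, ERB1 and DRS1 were among those lost. Without 15 min RRP14 did not pass (adjusted p = 0.0517), and without 2 h or 4 h MDN1 did not (adjusted p = 0.0514 and 0.0829).

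In the first hour at 37 °C the same genes stood far below their own 0 min level. The members' median change was -1.46 at 15 min, -2.54 at 30 min (-2.40 with dim values raised to the dim level) and -1.66 at 60 min. At least 2-fold lower were 43 members at 15 min (4.13% of all genes), 50 at 30 min (10.0%) and 46 at 60 min (8.64%). Changes at 30 min ran from -5.20, a dim value of SSF1, to -0.37. The lowest heat level between 15 min and 8 h came at 30 min for 46 members, at 60 min for 9 and at 15 min for 1, REI1 (-2.35, beside -2.28 at 30 min). ARX1 and CGR1 had 3 dim values in the first hour, and DBP9, RRP1, RRS1 and ALB1 had 2, so the time of their low is not resolved. Every member was below its 0 min level at 30 and 60 min, and at 15 min only MDN1 was not (0.01).

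These heat differences did not pass the test across genes. With the control and the 0 min difference subtracted, the members' median was -1.65 (0.05 for all genes), all 56 estimates were negative, and 0 of 56 passed, as did 0.0% of all genes on the lower side. At an unadjusted p under 0.05, 30 members (53.6%) were lower, beside 4.24% of all genes. The test carries the error of the single 0 min heat array, on which the members stood above the control by a median of 0.94. Against the control at the same times, with no subtraction, the members' medians were -0.25, -1.11 and -0.32 at 15, 30 and 60 min, and 29 members (51.8%) passed, 26 lower and 3 higher, beside 73.3% of all genes in either direction. With array weights 47 passed (83.9%), all lower, beside 12.3% of all genes, and without the 8 h arrays 1 passed, beside 0.0734%.

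CIC1, which encodes a spacer-trimming factor, had the largest 30 min change among values above the dim level, -4.31. SSF1, which encodes a nucleolar factor for an early step, had levels of 10.11 at 0 min and then 7.07, 4.92 and 8.30. Its estimate was -3.11 ± 1.15 (limma adjusted p = 0.539). ALB1, whose product travels with the export factor Arx1, went from 9.78 to 6.96, 5.67 and 6.48, with an estimate of -3.08 ± 0.66 (limma adjusted p = 0.330). The 30 min value of SSF1 and the 30 and 60 min values of ALB1 lay below the dim-signal level, so their low points are bounds rather than measured levels. Taken at the dim level, the 30 min change of SSF1 was -3.58 and that of ALB1 -3.25. MAK16, a partner of Nsa1, went from 8.94 to 6.69, 5.57 and 6.86, again with a 30 min value in the dim range. CGR1 went from 8.58 to 6.41, 5.67 and 6.24, and all 3 values after the shift were dim. The smallest first-hour estimates were those of RRP15 (-0.41 ± 0.50), RRP14 (-0.48 ± 0.48) and LOC1 (-0.52 ± 0.59). RRP14 and RRP15 encode partners of Ssf1, and LOC1 a nucleolar RNA-binding protein that also takes part in mRNA localisation.

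**Figure D2:**
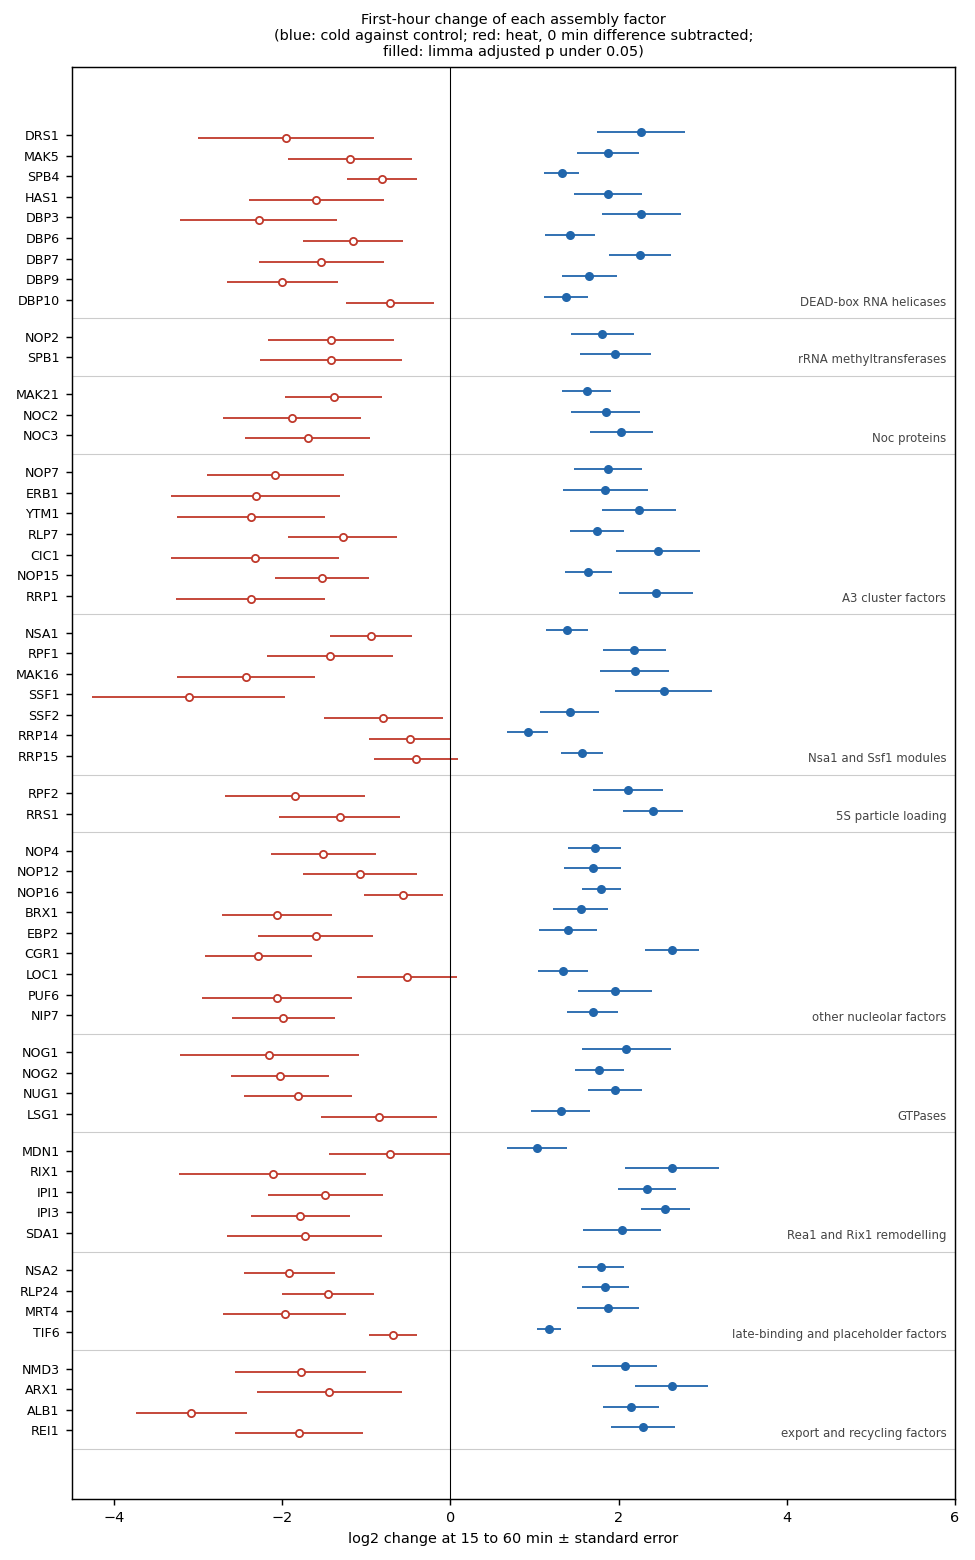
First-hour log2 change of each of the 56 factors, grouped by role, as estimate ± standard error from the limma fit; blue is cold against control, red is heat with the 0 min difference subtracted, and filled points have an adjusted p under 0.05. All 56 blue points are filled and positive, from 0.92 to 2.64; all 56 red points are open and negative, from -0.41 to -3.11.

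Heat and cold were then compared directly, each against its own 0 min array, so that the control arrays drop out. Here 52 of 56 members were lower in heat than in cold (limma adjusted p under 0.05), beside 8.42% of all genes on that side. The members' median difference was -3.30 and that of all genes 0.03. As in the heat test, each difference carries the error of the single 0 min heat array. Each also carries that of the single 0 min cold array, and no version without these arrays was run. The lowest fitted values were those of SSF1 (-5.22 ± 1.15, limma adjusted p = 0.0152), ALB1 (-4.93 ± 0.66, adjusted p = 0.00416) and CGR1 (-4.49 ± 0.64, adjusted p = 0.00432), each with dim heat values. With these at the dim level the differences were -4.68, -4.63 and -4.07, and that of DBP3, with no dim value, was -4.22. RRP14 passed narrowly with -1.57 ± 0.48 (limma adjusted p = 0.0473). The members that did not pass were SSF2 (-2.04 ± 0.71, limma adjusted p = 0.0702), LSG1 (-1.94 ± 0.69, adjusted p = 0.0760), LOC1 (-1.66 ± 0.59, adjusted p = 0.0754) and MDN1 (-1.46 ± 0.72, adjusted p = 0.182). Leaving out the 30 min arrays left 16 members (28.6%) past the threshold, leaving out 60 min left 34 (60.7%) and leaving out 4 h left 33 (58.9%), beside 2.99%, 8.92% and 8.17% of all genes in either direction, and RRP14 failed in each case (adjusted p = 0.132, 0.120 and 0.0679). Without 15 min MDN1 passed (adjusted p = 0.0313), and without 2 h LOC1 did (adjusted p = 0.0254). Across the 56 members the 30 min change in heat and the 30 min change in cold correlated negatively (Pearson r = -0.42, Spearman rho = -0.40); the 2 measures share no array.

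By role, every class had negative medians in the first hour of heat and positive ones in the first hour of cold. Among the 9 DEAD-box helicases, which remodel RNA duplexes in the precursor, DBP3 went from 13.03 to 10.81, 9.17 and 10.88 in the first hour of heat and from 11.36 to 12.60, 12.91 and 13.01 in the cold. DRS1 went from 10.90 to 9.43, 7.73 and 8.89 in heat and from 10.06 to 11.45, 11.71 and 11.59 in the cold. Both genes had their heat low at 30 min, and their cold values at 30 and 60 min lay close together. By 8 h of cold the levels were 11.13 for DBP3 and 8.76 for DRS1. Against the control over the first hour of cold, the difference was 2.27 ± 0.47 for DBP3 (limma adjusted p = 0.00393) and 2.26 ± 0.53 for DRS1 (adjusted p = 0.00704). HAS1 went from 13.37 to 11.99, 10.70 and 11.99 in heat and from 11.38 to 12.39, 12.71 and 12.68 in the cold. The 0 min heat level differed from the control's by 2.44 for HAS1, 2.01 for DBP3 and 1.32 for DRS1. HAS1 stayed above the control of the same time in heat, by 1.09, 0.07 and 1.36 at 15, 30 and 60 min. Of the methyltransferase genes, NOP2 went from 10.14 to 8.63, 7.44 and 9.22 in heat and from 11.24 to 12.13, 12.40 and 12.46 in the cold, and SPB1 from 11.17 to 9.77, 9.09 and 9.64 and from 9.69 to 11.14, 11.48 and 11.43. MAK21, one of the Noc scaffold proteins, went from 11.71 to 10.79, 9.72 and 10.04 in heat and from 11.64 to 12.32, 12.67 and 12.70 in the cold, where its difference from control was 1.62 ± 0.29 (limma adjusted p = 0.00181).

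The 7 factors of the A3 cluster, which are needed to trim the spacer between the rRNAs, had the lowest class median at 30 min of heat, -3.52. That value is the change of RRP1, whose 30 min level was dim, and with dim values at the dim level the class median was -3.46, still the lowest. CIC1 went from 11.50 to 9.71, 7.19 and 9.78. NOP7, which forms a stable trimer with Erb1 and Ytm1, went from 12.92 to 11.52, 9.46 and 10.50, and ERB1 from 12.18 to 10.39, 8.26 and 10.06. Each had its low at 30 min. The 0 min heat level differed from the control's by 0.75 for CIC1, 1.98 for NOP7 and 0.98 for ERB1. In the cold NOP7 went from 11.20 to 12.10, 12.57 and 12.73, a difference from control of 1.87 ± 0.41 (limma adjusted p = 0.00507). The 7 factors of the Nsa1 and Ssf1 modules had the highest class median at 30 min of heat, -1.53, and held SSF1 as well as the members with the smallest first-hour estimates, RRP14 and RRP15. NSA1 itself went from 11.55 to 10.77, 10.02 and 10.81 in heat and from 11.21 to 12.03, 12.19 and 12.13 in the cold (1.39 ± 0.24 against control, limma adjusted p = 0.00167). The difference between classes was not tested.

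SSF1 and SSF2 are a duplicated pair with overlapping functions. In heat SSF2 had levels of 9.69, 9.32, 8.33 and 8.99, a change of -1.36 at 30 min beside -5.20 for SSF1, or -3.58 with SSF1 taken at the dim level. In the cold SSF1 went from 9.00 to 10.65, 10.94 and 11.02 and SSF2 from 8.69 to 9.67, 9.96 and 10.13. The difference from control was 2.54 ± 0.57 for SSF1 (limma adjusted p = 0.00618) and 1.42 ± 0.35 for SSF2 (adjusted p = 0.0102). Whether the 2 genes differ was not tested, and how far their probe sets share signal was not tested either.

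RPF2 and RRS1, which bring the 5S particle into the precursor, had like courses in the cold. RPF2 went from 11.45 to 12.55, 12.84 and 12.91, and RRS1 from 10.33 to 11.83, 12.14 and 11.99. In heat RPF2 went from 13.28 to 11.45, 10.31 and 11.49, and RRS1 from 7.94 to 6.52, 5.83 and 6.72. The RRS1 values at 15 and 30 min lay in the dim range, and its 0 min level differed from the control's by -1.90. For RPF2 the 0 min difference was 2.27. The RNA-binding factor gene NOP4, of the other nucleolar factors, went from 11.42 to 10.25, 9.23 and 9.71 in heat and from 11.11 to 12.16, 12.43 and 12.74 in the cold, where its difference from control was 1.72 ± 0.31 (limma adjusted p = 0.00203). Among the GTPases, NOG1 went from 10.94 to 9.03, 7.04 and 9.12 in heat and from 11.33 to 12.49, 12.86 and 12.76 in the cold. NOG2, which acts at the checkpoint before export, went from 12.73 to 10.47, 9.97 and 10.80 in heat and from 11.82 to 12.92, 12.94 and 12.91 in the cold. Both had their low at 30 min of heat. LSG1, the cytoplasmic GTPase that releases the export adaptor Nmd3, had a smaller cold difference of 1.31 ± 0.35 (limma adjusted p = 0.0136) than the 2.09 ± 0.53 of NOG1 (adjusted p = 0.0109), with errors that overlap.

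The Rea1 and Rix1 class, which strips earlier factors before export, had the highest class median at 30 min of cold, 1.78, but MDN1 lay far from the rest. RIX1 went from 10.44 to 8.82, 6.14 (in the dim range) and 8.84 in heat, a change of -4.31 at 30 min, where MDN1 changed by -1.19 (13.79, 13.80, 12.60 and 12.07). The MDN1 low came later, at 60 min. SDA1, which joins the same particles, went from 12.28 to 11.19, 9.29 and 10.29 in heat and from 10.96 to 12.12, 12.39 and 12.61 in the cold. IPI3, a partner of Rix1, had the smallest adjusted p of all members in the cold (2.56 ± 0.29, limma adjusted p = 0.000211), with cold levels of 8.58, 10.46, 10.77 and 10.65 beside 8.34, 8.15, 7.99 and 8.06 in the control.

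**Figure D3:**
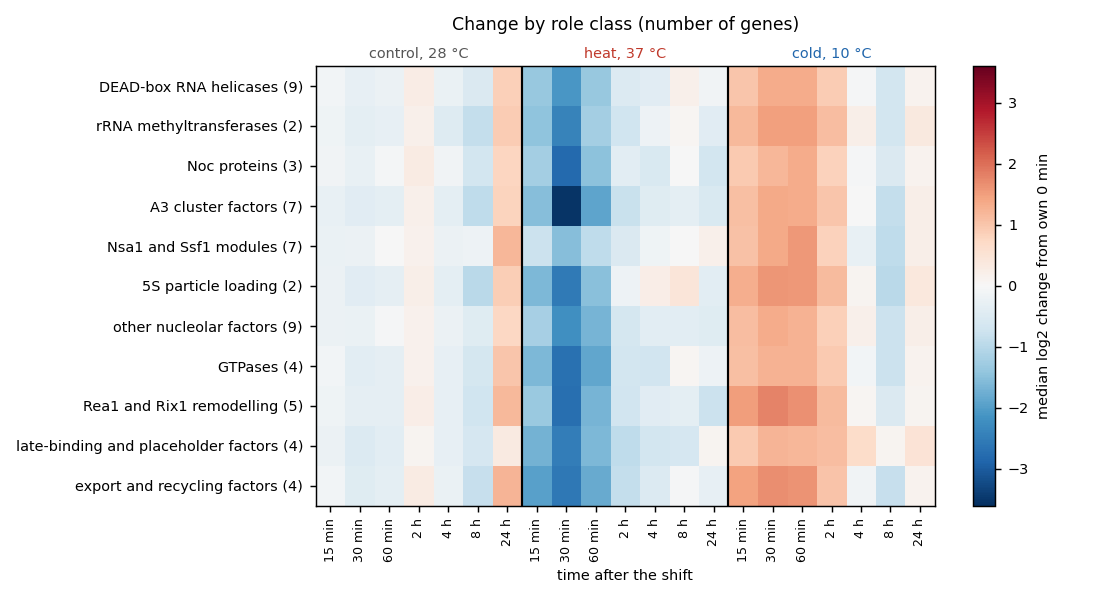
Median log2 change from the own 0 min array for each role class of assembly factors (rows, with the number of genes) at each time of control, heat and cold (columns). The A3 cluster reached -3.52 at 30 min of heat, the value of RRP1, which was dim there, and the Rea1 and Rix1 class 1.78 at 30 min of cold; at 4 h of cold the late-binding and placeholder class still stood at 0.66.

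NMD3, REI1, ARX1 and ALB1 serve nuclear export or its aftermath. NMD3, the export adaptor, went from 12.26 to 10.75, 9.40 and 10.54 in heat and from 11.48 to 12.55, 12.83 and 12.89 in the cold. REI1, whose product recycles Arx1 and Alb1 in the cytoplasm, had heat levels of 12.63, 10.28, 10.35 and 10.91 and was the member that reached its low by 15 min. ARX1 had a cold difference of 2.63 ± 0.43 (limma adjusted p = 0.00112). In heat its levels were 7.35, 5.81, 5.57 and 5.42, and the 3 values after the shift lay in the dim range. Its 0 min heat level differed from the control's by -2.80, the widest such gap below control among the members. The widest gap above control was that of REI1, 2.71.

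Some assembly factors resemble a ribosomal protein and hold its place on the particle until it arrives: RLP24 for Rpl24, MRT4 for P0, and RLP7, which resembles Rpl7. In the cold the signal of these factors rose, while that of the ribosomal proteins was high and nearly level. At 0 min of the cold series the log2 level was 14.53 for RPL7A, 14.31 for RPL24A and 14.14 for RPP0, beside 11.68 for RLP7. Whether signal this high can show a rise was not tested. RLP24 changed by 1.07, 1.34 and 1.43 from its 0 min level at 15, 30 and 60 min of cold, and RPL24A by -0.01, 0.02 and -0.04. MRT4 changed by 0.96, 1.26 and 1.27, and RPP0 by 0.06, 0.08 and -0.04. RLP7 changed by 0.97, 1.22 and 1.30, and RPL7A by 0.01, 0.05 and 0.03. In heat MRT4 changed by -2.04, -3.14 and -1.81 and RPP0 by -0.41, -0.70 and -1.45, so the factor was lowest at 30 min and the ribosomal protein at 60 min of the first hour. The heat course of RPP0 began at 10.26 at 0 min, where it differed from the control by -3.94 before any shift, a wider gap than that of any of the 56 factors. The differences within these pairs were not tested.

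**Figure D4:**
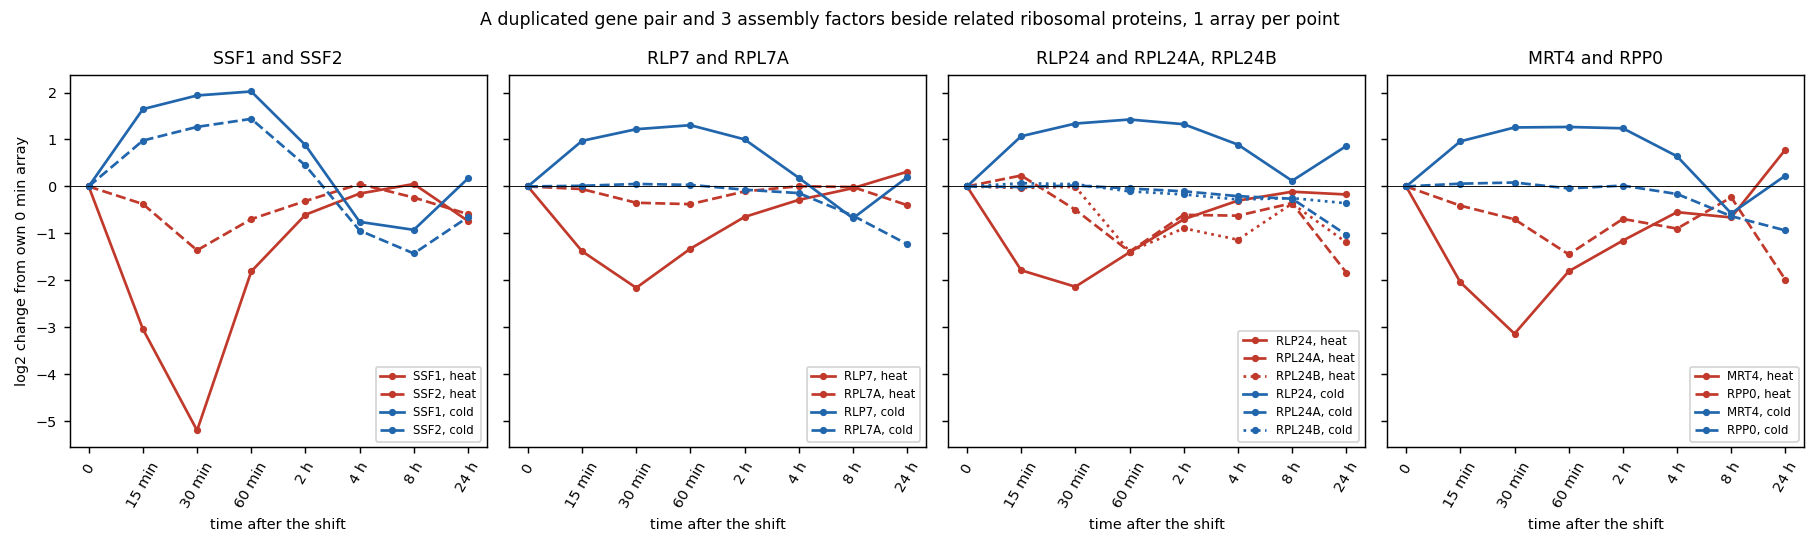
Log2 change from the own 0 min array over the 8 sampling times (evenly spaced) in heat (red) and cold (blue), 1 array per point, for SSF1 and SSF2 and for RLP7, RLP24 and MRT4 beside the related ribosomal protein genes. At 30 min of heat SSF1 stood at -5.20, from a dim value, and SSF2 at -1.36. At 60 min of cold RLP24 stood at 1.43 and RPL24A at -0.04. The effect of high signal on the ribosomal protein values was not tested.

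From 2 to 8 h the members' heat levels lay closer to their starting point. The members' median change from 0 min was -0.63 at 2 h, -0.41 at 4 h and -0.16 at 8 h. For 51 of 56 members the heat levels at 2, 4 and 8 h all lay above those at 15, 30 and 60 min, beside 16.6% of all genes. SSF1 was at 9.51, 9.96 and 10.16, beside 10.11 at 0 min, and ALB1 at 8.74, 8.91 and 8.82, still below its 9.78 at 0 min. In the fit of late against early heat, each less control, the median was 1.51 (-0.01 for all genes) and 55 of 56 estimates were positive, with 2.97 ± 0.81 for SSF1 (limma adjusted p = 0.146), 2.40 ± 0.47 for ALB1 (adjusted p = 0.0919) and -0.01 ± 0.42 for LOC1 (adjusted p = 0.988). None of the 56 passed in limma, beside 0.147% of all genes called higher. At an unadjusted p under 0.05, 44 members (78.6%) were higher, beside 11.1% of all genes. With array weights 14 members passed, beside 3.62% of all genes, and without the 2 h arrays 15 (26.8%) passed, beside 2.73%, ALB1 among them (adjusted p = 0.0201).

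Against 0 min and control, late heat left no member called by limma (0 of 56, also 0 at an unadjusted p under 0.05), beside 0.0% of all genes called lower. Estimates ran from -0.71 ± 0.66 for BRX1, a nucleolar factor of early particles, to 0.87 ± 0.72 for RRS1, with a median of -0.17. Without the subtraction 32 members (57.1%) passed, 24 higher and 8 lower, beside 76.0% of all genes in either direction, and the median was 0.67. The sign of the late heat difference therefore depends on the 0 min array, and the median was 0.17 when the 2 h arrays were left out.

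In the cold the rise ended between 2 and 8 h. The members' median change from 0 min was 1.01 at 2 h, 0.02 at 4 h and -0.74 at 8 h, when 17 members (30.4%) were at least 2-fold lower, beside 11.9% of all genes. The control median was -0.62 at 8 h, with 7 members (12.5%) at least 2-fold lower, beside 2.28% of all genes. Against control at the same times, the medians were 1.13, 0.67 and 0.23. Over the late window 16 of 56 members (28.6%) were higher (limma adjusted p under 0.05), beside 22.0% of all genes, and 9 members (16.1%) had cold levels that did not overlap the control's, beside 26.6%. These shares are near those of all genes.

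The late-binding and placeholder class, which joins the particle late in the nucleus or leaves it in the cytoplasm, had all 4 of its genes among the 16: TIF6 (0.99 ± 0.14, limma adjusted p = 0.000334), RLP24 (1.26 ± 0.27, adjusted p = 0.00369), NSA2 (1.14 ± 0.27, adjusted p = 0.00580) and MRT4 (1.15 ± 0.37, adjusted p = 0.0253). RLP24 was at 12.91, 12.48 and 11.71 at 2, 4 and 8 h of cold and at 11.55, 11.03 and 10.75 in the control. NSA2 was at 12.88, 12.49 and 11.97, beside 11.73, 11.31 and 10.90. For both genes all 3 late cold values lay above all 3 late control values. The largest late estimate was that of CGR1, 1.59 ± 0.32 (limma adjusted p = 0.00224), followed by DBP3 with 1.44 ± 0.47 (adjusted p = 0.0285) and CIC1 with 1.33 ± 0.50 (adjusted p = 0.0522). The lowest was that of SSF2, -0.50 ± 0.35 (adjusted p = 0.293).

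The late cold calls move with single times. Without the 4 h arrays 5 members (8.93%) passed, beside 24.9% of all genes in either direction, and DBP3 (adjusted p = 0.140), MRT4 (adjusted p = 0.163) and NSA2 (adjusted p = 0.0523) were lost. Without 2 h 8 members (14.3%) passed, beside 38.8% of all genes, DBP3 (adjusted p = 0.0526) and MRT4 (adjusted p = 0.0650) were lost, and SSF2 was lower (adjusted p = 0.0271). Without 30 min CIC1 passed (adjusted p = 0.00862). With the 0 min difference subtracted 0 members passed, with the cold and control arrays alone 38 (67.9%), beside 55.5% of all genes in either direction, and with array weights 49 (87.5%), beside 81.9%.

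Late cold was lower than early cold, each less control, for 11 of 56 members (19.6%; limma adjusted p under 0.05), beside 11.5% of all genes. These were DBP7, DBP10, REI1, RPF1, ARX1, SSF2, IPI1, IPI3, RRS1, ALB1 and NSA1. DBP7, a helicase of early particles, had -2.04 ± 0.53 (limma adjusted p = 0.0186) and REI1 -1.94 ± 0.54 (adjusted p = 0.0248). SSF1 had the lowest estimate, -2.28 ± 0.81 (adjusted p = 0.0596), and TIF6 the highest, -0.18 ± 0.20. DBP7 cold levels were 11.34, 11.67 and 11.57 in the first hour and 10.54, 8.93 and 8.73 at 2, 4 and 8 h. Its late values all lay below its early values. Leaving out 15 min, 30 min or 4 h left 0 members past the threshold, beside 8.41%, 6.02% and 4.4% of all genes in either direction. Leaving out 60 min left 1, beside 17.6%, and leaving out 2 h left 29 (51.8%), beside 32.7%. SSF1 was among the 29 (adjusted p = 0.0324). DBP7 did not pass without 15, 30 or 60 min or 4 h (adjusted p = 0.0577, 0.0775, 0.0606 and 0.0974), nor did REI1 (adjusted p = 0.0636, 0.107, 0.0758 and 0.106). With the cold and control arrays alone 49 (87.5%) passed, beside 41.5% of all genes in either direction.

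At 24 h each temperature has a single array, so values are given with no test. In the control the members' median change from 0 min was 0.87, and 25 members (44.6%) were at least 2-fold higher, beside 20.3% of all genes. RPF1, a factor of the Nsa1 module, had the largest change, 2.34, followed by DRS1 with 1.98. The members at least 2-fold lower in the control were ALB1 (-1.31) and RRP1 (-1.12), 2 of 56 beside 20.5% of all genes. In heat at 24 h 10 members (17.9%) were at least 2-fold lower, beside 17.2% of all genes, and the lowest were again ALB1 (-3.65) and RRP1 (-3.64), ahead of DBP9 (-2.33) and NIP7 (-2.26). ALB1 at 6.13, RRP1 at 5.77 and DBP9 at 6.34 were in the dim range. In the cold at 24 h the median change was 0.21 and 0 members were at least 2-fold lower, beside 13.0% of all genes. Against the control of the same time the cold median was -0.36, with 37 members lower and 19 higher.

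Other genes of the pathway were described in the same way. Of 30 further 60S assembly genes, 26 (86.7%) were higher than control in the first hour of cold (limma adjusted p under 0.05), beside 16.3% of all genes. The median of the 30 was 1.62. SYO1, whose product chaperones ribosomal proteins of the 5S particle, had the largest difference, 2.82 ± 0.72 (limma adjusted p = 0.0113, and 0.0629 without the 60 min arrays), and FPR3, a nucleolar prolyl isomerase, the smallest, 0.19 ± 0.17 (adjusted p = 0.423). Against heat, 20 of the 30 (66.7%) were lower in heat than in cold, beside 8.42% of all genes, and the median of the 30 was -2.27. In late cold 7 were higher (23.3%, beside 22.0% of all genes), led by the export factor gene ECM1 (2.07 ± 0.25, limma adjusted p = 0.000139), and 1 was lower (19.0% of all genes were), LAS1, which encodes a nuclease that cleaves the spacer (-1.51 ± 0.24, adjusted p = 0.000614). In early heat 0 of 30 passed, with a median of -0.90 and 6 at an unadjusted p under 0.05.

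All 46 small-subunit assembly genes were called higher than control in early cold (median 1.96), beside 16.3% of all genes. Of the 46, 39 (84.8%) were lower in heat than in cold (list median -2.95), beside 8.42% of all genes. Of 75 large-subunit ribosomal protein genes, 0 were called in early cold by limma, beside 16.3% of all genes higher and 16.5% lower. Their median was 0.18, and 3 (4.0%) were higher at an unadjusted p under 0.05, beside 20.6% of all genes. Their median changes from own 0 min in heat were -0.34, -0.90 and -1.40 at 15, 30 and 60 min. Lower in heat than in cold were 5 of 75 (6.67%), near the 8.42% of all genes. As for RPL7A, RPL24A and RPP0, the effect of high signal on these values was not tested. The difference between these lists and the 56 factors was not tested.

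Among 18 general stress genes, 16 were lower in early cold, beside 16.5% of all genes, and 12 were higher in heat than in cold, beside 7.82% (limma adjusted p under 0.05). Their summed level on the log2 scale ran from 17.36 to 17.93 in the control, 17.15 to 18.33 in heat and 15.77 to 18.15 in the cold. The summed level of 10 meiosis and sporulation genes ran from 11.00 to 11.66 in the control, 12.04 to 12.41 in heat and 11.04 to 11.44 in the cold, and that of 10 stationary phase genes from 14.56 to 16.56, 13.85 to 15.41 and 14.07 to 15.71. That of 6 mating type genes ran from 13.15 to 15.56, 12.42 to 15.01 and 15.50 to 15.60. No gene of these lists was in the dim range on all arrays, and their part in the results was not tested.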

How the data were processed

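RNA of 24 yeast samples was hybridised to 1-colour arrays. The authors deposited log2 values per probe set, made with RMA according to the labels' processing tools, per the submitters' notes; for the RMA version and for which arrays were processed together, the sources used here give nothing. RMA makes array distributions alike and compresses changes of dim probe sets. Of 10928 probe sets, 5498 have 1 S. cerevisiae gene in the platform annotation, 1 has several, 1746 belong to other species and 3683 are unlisted. Probe sets of 47 genes were averaged, leaving 5449 genes; coding lengths and locus names came from RefSeq. Nothing else was normalized.

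The model, run on all arrays in limma 3.58.1 (lmFit, eBayes; R 4.3.3), had time point as a block of 8 levels and heat and cold terms for 0 min, for 15, 30 and 60 min (early), for 2, 4 and 8 h (late) and for 24 h (8 residual degrees of freedom). Cold was compared with control at the same times, and heat after subtracting the 0 min difference. P-values were adjusted over 5449 genes by Benjamini-Hochberg. The times of a window stand in for replicates, so p-values measure the spread between times, not between cultures, and the number of arrays limits the precision. In this fit each gene's error is pooled over all 24 arrays, so errors and p-values for cold include the spread of the heat series. Members and lists were chosen with earlier results of these data known. The named genes were set by role, with the 3 highest and 3 lowest members of each comparison; MRT4, CIC1, RRP15, CGR1, ALB1, IPI3 and the genes given for 24 h or for other lists were added for their values or role. The fit was tested on simulated data. The median standard error in heat early was 0.343 over all genes and 0.715 over the 56 members. Values below the dim level were also raised to it, an alternative chosen after seeing the data. Alternatives covered the 0 min subtraction, the late window, the block, normalization, dim genes, probe set choice, the arrays in the fit, array weights and each time left out.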

Additional observations from a re-analysis of the deposited data

Results flagged for a closer look

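The first-hour responses to heat and cold differed by a test of the difference itself. With limma, 52 of 56 members passed, all lower in heat, beside 8.42% of all genes, and 16 passed without the 30 min arrays. SSF1 had -5.22, ALB1 -4.93, CGR1 -4.49 and RRP14 -1.57 on the log2 scale. Some heat values of SSF1, ALB1 and CGR1 were dim, and with these at the dim level the differences were -4.68, -4.63 and -4.07. The heat arrays carry another labelling kit, and its part in these values was not tested.

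From the first hour to 2 to 8 h the members' medians moved in opposite directions in the 2 shifts. The members' median difference was 1.51 in heat and -1.13 in cold, each less control, and the difference between these medians was not tested. In limma 0 of 56 members passed in heat, beside 0.147% of all genes called higher. In cold 11 members (19.6%) were lower, beside 11.5% of all genes, and 0 passed without 15 min, 30 min or 4 h.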

How the results depend on the processing

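With no subtraction of the 0 min difference 29 members passed in early heat (26 lower, 3 higher), beside 73.3% of all genes in either direction. In late heat 32 passed, beside 76%. With the difference subtracted 0 passed in early cold and 0 in late cold, as did 0 genes in all. Array weights, whose iteration stopped before its tolerance was reached, gave 47 in early heat (12.3% of all genes in either direction) and 49 in late cold (81.9%). They gave 14 for late against early heat (3.62%) and 54 members, or 96.4%, for late against early cold (76.4% of all genes). Cold and control arrays alone gave 38 in late cold (55.5% of all genes) and 49 for late against early cold (41.5%). A late window of 2 to 24 h gave 7 members (12.5%) in late cold, beside 30.1% of all genes. Leaving out each time in turn gave 0 to 1 members in early heat, 43 to 56 in early cold, 5 to 22 in late cold, 0 to 15 for late against early heat, 0 to 29 for late against early cold and 16 to 55 for heat against cold. The shares of all genes, in either direction, were 0 to 0.0734% in early heat, 15 to 37.5% in early cold and 24.9 to 40.1% in late cold. They were 0.0184 to 2.73% for late against early heat, 4.4 to 32.7% for late against early cold and 2.99 to 23.2% for heat against cold. The late heat median turned to 0.67 with no subtraction and ran from -0.47 to 0.17 with times left out. Other turns of sign came with no subtraction (RRP14 0.32 in early heat; NSA2 0.28, RRS1 -1.03 and ARX1 -2.27 in late heat), with the wider late window (HAS1 -0.13 in late heat, LOC1 0.047 for late against early heat) and with array weights (MDN1 0.070 for late against early cold). With times left out, ARX1 ran from -0.15 to 0.91 and HAS1 from -0.13 to 0.77 in late heat, ERB1 from -0.48 to 0.23 and EBP2 from -0.36 to 0.23 in late cold, LOC1 from -0.32 to 0.27 for late against early heat and MDN1 from -0.47 to 0.12 for late against early cold. With values under the dim level raised to it, chosen after seeing the data, 0 members passed in early heat and 51 for heat against cold. That run tested fewer genes and its share of all genes is not given here, so the 51 has no background to be read against. The causes were not tested. The number of arrays, 1 per temperature and time, limits every comparison, and values under 6.53 are bounds.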

Other observations

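Across the 56 members the 24 h change from 0 min in control correlated with that in heat (Pearson r = 0.80, Spearman rho = 0.73), while control against cold gave r = 0.13 and rho = 0.14, and heat against cold r = 0.04 and rho = 0.03. These values are descriptions over 56 genes that share 2 arrays per series, genes are not independent replicates, and the difference between the correlations was not tested.

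Members with a lower 0 min level in the cold series had a larger change at 60 min of cold (Pearson r = -0.69, Spearman rho = -0.70 over 56 genes); both measures share the 0 min array.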
